A study of Mus musculus with 12 samples.

Results

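The genes described here are 9 mouse genes whose human counterparts lie near common migraine risk loci: Lrp1, Mrvi1, Prdm16, Mef2d, Phactr1, Tgfbr2, Astn2, Fhl5 and Plce1. They were found by symbol among the 51341 genes of the deposited table, and all 9 were present. Of the 9, 8 reached 1 FPKM (fragments per kilobase, corrected for library depth) in at least 3 mice and were tested together with the other genes that did so, 14203 in all. The values come from poly A RNA sequencing of whole trigeminal ganglia, the sensory ganglia of the face and the meninges, of 12 CD1 mice, an outbred stock. In the responders, 6 mice had reacted to PACAP, the neuropeptide pituitary adenylate cyclase-activating polypeptide, and in the nonresponders 6 mice had not. Each group held 3 males (responders 1, 2 and 6, and nonresponders 2, 4 and 5) and 3 females. No genotype, age or treatment beyond this is given in the sources used here, nor how a response was scored or when PACAP was given before dissection.

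Genome-wide association studies in human link common variants near these genes to migraine, and a gene near such a locus is a candidate rather than a proven target. The genes fall into several kinds of proteins. LRP1 is an endocytic receptor of the LDL receptor family, and ASTN2 is a neuronal membrane protein known from neuron migration along glia in mouse. MRVI1 is a substrate of cGMP-dependent protein kinase that restrains calcium release through the IP3 receptor in smooth muscle. PLCE1 is a phospholipase C that answers to RAS and RAP proteins and makes IP3, TGFBR2 is the type II receptor for TGF-beta, and PHACTR1 binds actin and protein phosphatase 1. PRDM16 and MEF2D are transcription factors, and FHL5 is a LIM protein that assists CREM. Several of these genes are used in blood vessel walls as well as in neurons. In whole ganglia, fewer cells of a type and less RNA per cell cannot be told apart.

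The promoters of the genes on which the results turn most are shown first: Lrp1, whose values fell into 2 separate blocks, and Mrvi1, which had the smallest p of the members. The sequences are RefSeq's, from GRCm38.p6, and give the 250 bases before an annotated start, written 5′ to 3′ on the gene's strand, which is the minus strand for both genes. Capitals mark a GC box (GGGCGG, or CCGCCC where it lies on the other strand). The Lrp1 window is chr10:127621149-127621398, and the windows of the 2 Mrvi1 starts are chr7:110982462-110982711 and chr7:110946188-110946437.
Lrp1: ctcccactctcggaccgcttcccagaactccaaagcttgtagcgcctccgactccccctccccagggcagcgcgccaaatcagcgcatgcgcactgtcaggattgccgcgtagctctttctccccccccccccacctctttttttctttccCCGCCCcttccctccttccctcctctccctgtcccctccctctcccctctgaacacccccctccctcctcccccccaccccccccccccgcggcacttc
Mrvi1 start 1: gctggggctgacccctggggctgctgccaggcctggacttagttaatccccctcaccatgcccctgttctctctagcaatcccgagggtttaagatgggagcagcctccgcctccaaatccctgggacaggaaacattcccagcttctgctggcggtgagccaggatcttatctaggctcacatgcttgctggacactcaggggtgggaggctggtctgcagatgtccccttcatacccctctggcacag
Mrvi1 start 2: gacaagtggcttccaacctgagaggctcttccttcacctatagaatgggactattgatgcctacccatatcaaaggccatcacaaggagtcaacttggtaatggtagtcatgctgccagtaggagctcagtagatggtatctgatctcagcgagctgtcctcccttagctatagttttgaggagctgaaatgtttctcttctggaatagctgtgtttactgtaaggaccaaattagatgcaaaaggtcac
RefSeq windows were found for all 9 members, with 13 starts. A GC box lay in the Lrp1 window, at position -99 counted from the start, and in windows of Prdm16 (1 match), Mef2d (2) and Astn2 (2). It was present in 32.74% of 32851 promoter windows of the same length. The full cAMP response element TGACGTCA, held by 1.55% of windows, was in no member's window, nor were the CArG box (1.47%) and the MEF2 site (0.51%). The shorter TGACG, held by 17.77% of windows and contained in the full element, was found in 1 Phactr1 window. All motifs were searched on both strands, and neither Mrvi1 window held any of them. A match is a description of the letters.

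Across the 12 mice, Phactr1 had the highest level, at 15.9 ± 2.83 FPKM (mean ± SD, n = 12), and exceeded each of the other members except Lrp1 in all 12 mice. It was above Lrp1 in 7 of 12 mice. Plce1 (6.98 ± 1.25 FPKM), Astn2 (6.10 ± 1.39 FPKM) and Mef2d (5.37 ± 0.911 FPKM) followed, and these neighbours were close: Plce1 exceeded Astn2 in 9 mice and Astn2 exceeded Mef2d in 9. Tgfbr2 averaged 3.75 ± 0.519 FPKM and lay below Mef2d in 11 mice. Mrvi1 averaged 2.99 ± 1.20 FPKM, and its order against Tgfbr2 was not settled, since Tgfbr2 was higher in 7 of 12 mice. Prdm16 averaged 1.56 ± 0.447 FPKM and was below Mrvi1 in 11 mice. Fhl5 was the lowest in every mouse, at no more than 0.188 FPKM. FPKM corrects a comparison between genes for length only. Values of some genes, such as Lrp1 and Actb below, fell into separate blocks, so this order is one of listed values. Tgfbr2 varied least among the members, with a highest value 1.48 times its lowest.

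**Figure D1:**
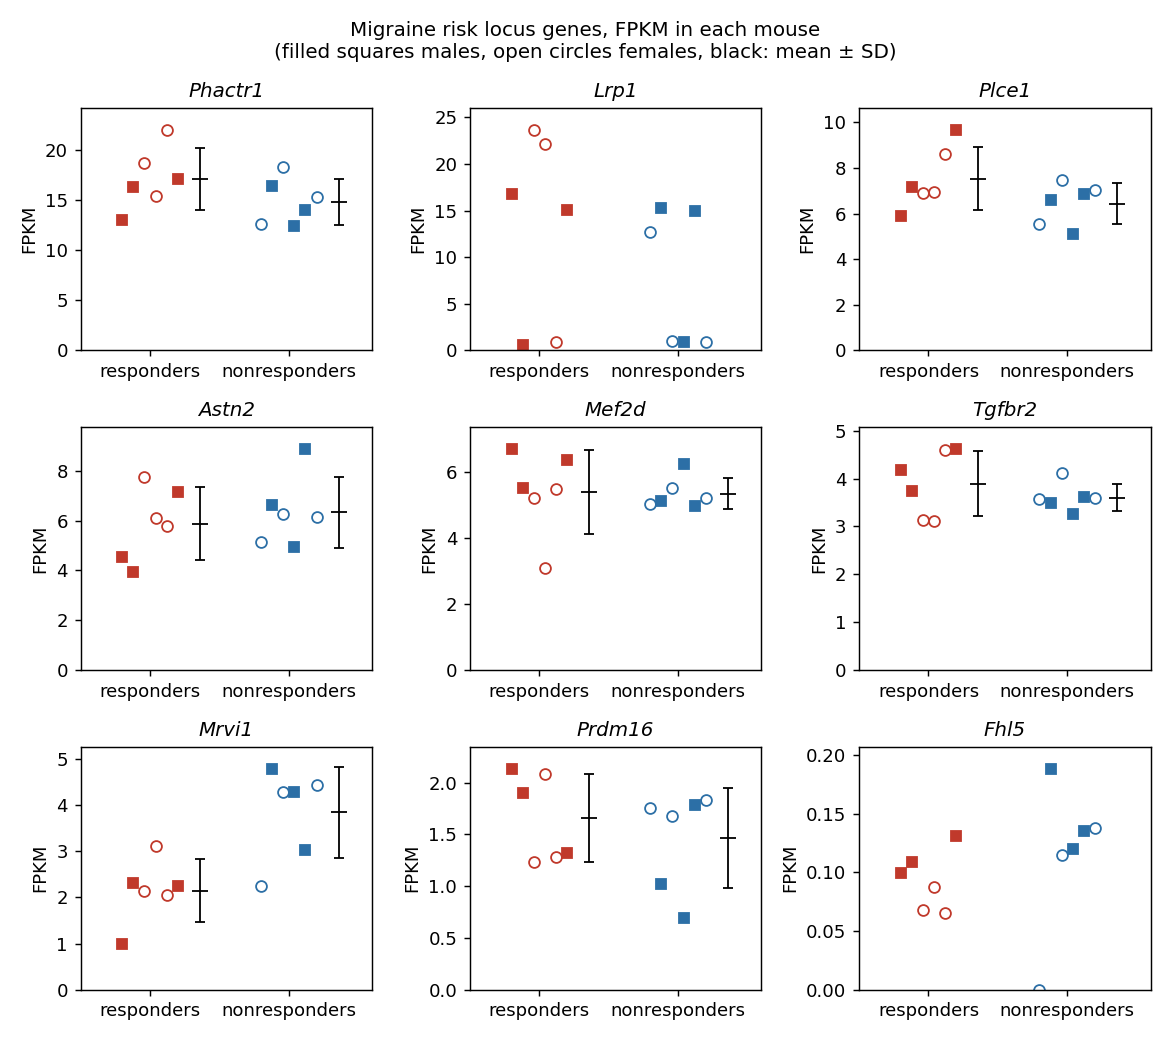
FPKM (vertical axes, linear, from 0) of each of the 9 genes in each mouse, responders left of nonresponders, with filled squares for males and open circles for females. Black bars give the mean ± SD (n = 6) and are left out for Lrp1, which splits into 5 mice at or below 1.02 FPKM and 7 at or above 12.7 FPKM, and for Fhl5, which is listed at 0 in 1 mouse.

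None of the 8 tested members passed the test of responders against nonresponders. The test was limma on log2(FPKM + 1) with sex as a covariate and Benjamini-Hochberg adjustment over all 14203 genes, with a threshold of 0.05. The count of members was 0 of 8, in a comparison that called 0.0211% of all genes tested (3 genes). At an unadjusted p under 0.05, 1 of the 8 was past the threshold, Mrvi1, which was lower. The share of all genes past it was 7.4% in either direction, 4.17% lower and 3.23% higher. The median log2 fold change of the 8 members was 0.10, with 5 above 0 and 3 below, beside 0.003 over all genes tested. The 95% intervals of Mef2d, Phactr1, Plce1, Tgfbr2, Prdm16 and Astn2 reached from -0.46 to 0.47 on the log2 scale at the widest. No member had groups that did not overlap (0 of 8), against 0.549% of all genes tested.

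**Figure D2:**
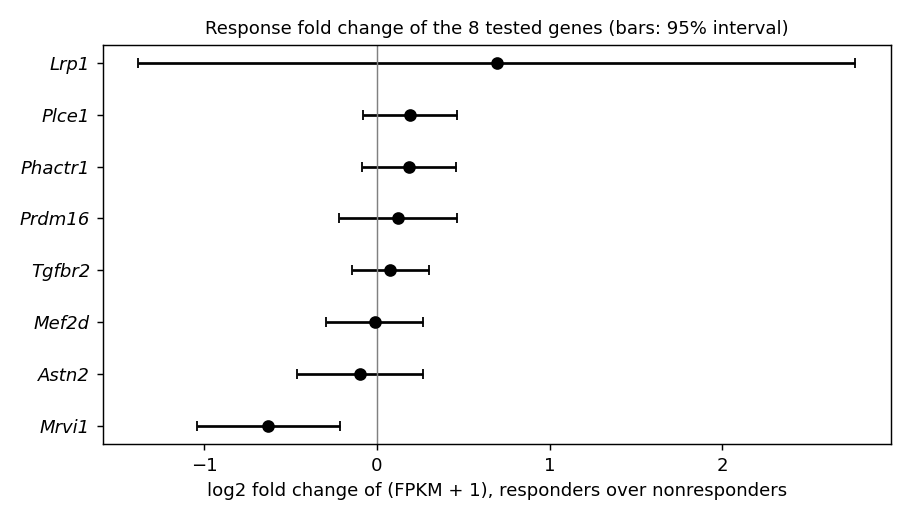
Log2 fold change of (FPKM + 1), responders over nonresponders, for the 8 tested genes, with the 95% interval from limma as a bar. The interval of Mrvi1 lies below 0 (-1.04 to -0.22) with an adjusted p of 0.504, and the interval of Lrp1 is the widest (-1.38 to 2.77).

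Mrvi1 (ENSMUSG00000005611, GRCm38 chr7:110868266-110982461, minus strand) was lower in responders without passing the adjusted threshold. It had 1.00, 2.31, 2.13, 3.12, 2.05 and 2.25 FPKM in responders 1 to 6, against 2.25, 4.78, 4.27, 4.28, 3.03 and 4.44 FPKM in nonresponders 1 to 6. The groups overlapped through responder 4 and nonresponder 1, while all 6 responders lay below the nonresponder median and all 6 nonresponders above the responder median. Mean levels were 2.14 ± 0.680 FPKM in responders and 3.84 ± 0.981 FPKM in nonresponders (SD, n = 6 each). The log2 fold change was -0.63 (SE 0.188, 95% interval -1.04 to -0.22), with a limma p of 0.0064 and an adjusted p of 0.504. By p, 179 of the 14203 genes ranked before it. Without responder 1, the lowest mouse and the one with the smallest implied depth, the log2 fold change was -0.50.

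Markers of several cell types differed on average beside Mrvi1, without passing the test. Of the vascular smooth muscle and pericyte markers, 9 of 9 tested were lower in responders (median log2 fold change -0.38), with summed levels of 33.9 to 73.9 FPKM in responders and 33.6 to 92.3 FPKM in nonresponders. Among these, the contractile genes Acta2 and Myh11 averaged 11.5 ± 4.34 and 1.95 ± 1.22 FPKM in responders, against 20.2 ± 11.8 and 3.64 ± 2.34 FPKM in nonresponders. Pdgfrb was listed at or near 0 in all mice (at most 0.0546 FPKM), which is not read as absence. Of the fibroblast and meningeal markers, 7 of 8 were lower (median -0.89, sums 268 to 529 FPKM in responders and 566 to 1626 FPKM in nonresponders), and of the myelinating Schwann cell markers 7 of 8 (median -0.57). Lower too were 8 of 9 endothelial markers (median -0.22, sums 49.3 to 64.2 FPKM in responders and 53.0 to 81.3 FPKM in nonresponders), 4 of 4 bone markers (median -1.76, sums 5.81 to 57.6 FPKM in responders and 12.3 to 202 FPKM in nonresponders) and 5 of 5 markers of central nervous system glia (median -0.79, sums 56.7 to 209 FPKM in responders and 102 to 417 FPKM in nonresponders). All 8 pituitary markers were higher (median 2.73, sums 359 to 77911 FPKM in responders and 27.2 to 1053 FPKM in nonresponders), and Fshb and Pou1f1 were listed at 0 in some mice. None of these markers was called by limma. Over the 12 mice, Mrvi1 had a Pearson r of 0.08 with the mean log2 level of the smooth muscle list (permutation p = 0.796) and of -0.76 with that of the pituitary list (permutation p = 0.0036, adjusted p = 0.325 over 91 relations between members and marker lists). The Spearman rho with the smooth muscle list was 0.11 (permutation p = 0.734), and with the pituitary list it was -0.71 (permutation p = 0.0118, adjusted p = 0.671). Without responders 1 and 2, the mice farthest from the median of the pituitary list, the r with the pituitary list was -0.53, and it was -0.86 within responders and -0.05 within nonresponders. The highest pituitary sum, 77911 FPKM, stood beside totals of 286388 to 358590 FPKM per mouse. FPKM is corrected for library depth, so a sum of that size could lower the other listed values of its mouse. Whether this enters the r was not tested. Positive r values with Mrvi1 were found for the adipocyte list (r = 0.63, permutation p = 0.0292, rho = 0.48, permutation p = 0.116), central nervous system glia (r = 0.61, permutation p = 0.0338, rho = 0.58, permutation p = 0.0520), satellite glia (r = 0.59, permutation p = 0.0436, rho = 0.27, permutation p = 0.391), fibroblasts (r = 0.57, permutation p = 0.0507, rho = 0.43, permutation p = 0.169) and Schwann cells (r = 0.57, permutation p = 0.0546, rho = 0.36, permutation p = 0.248). Their adjusted p was 0.481 for r in each case and 0.671 to 0.792 for rho. Without the 2 mice farthest from each list's median, r was 0.40 for adipocytes, 0.43 for central glia, 0.18 for satellite glia, 0.39 for fibroblasts and -0.0089 for Schwann cells, so that the relation with Schwann cells rests on responder 1 and nonresponder 6, and that with satellite glia largely on responders 1 and 2. Within responders and within nonresponders these r values were -0.41 and 0.49 for adipocytes, -0.16 and 0.82 for central glia, 0.68 and 0.18 for satellite glia, 0.34 and -0.13 for fibroblasts, and 0.74 and -0.53 for Schwann cells. For the smooth muscle list r was -0.56 without nonresponders 3 and 4, -0.91 within responders and -0.01 within nonresponders. Differences between the groups in these r values were not tested. The part of these markers in the Mrvi1 values was not tested.

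The genes of nitric oxide, cGMP and calcium release, the pathway in which MRVI1 is known, gave no call. Of 14 listed, 11 were tested and 0 were called or had an unadjusted limma p under 0.05, with 8 of 11 below 0 (median -0.09). The paralog Lrmp averaged 1.19 ± 1.43 FPKM in responders and 9.10 ± 15.7 FPKM in nonresponders (adjusted p = 0.755). Of the IP3 receptors, Itpr3 averaged 19.8 ± 3.54 FPKM in responders and 19.9 ± 2.16 FPKM in nonresponders. Itpr1 was higher in responders without a call (log2 fold change 0.47, adjusted p = 0.770 by limma). Its median was 7.41 FPKM in responders and 6.06 FPKM in nonresponders, and its highest value, 27.6 FPKM, was that of a responder. Prkg1, which encodes the kinase of which MRVI1 is a substrate, did not reach the filter, at 0.157 to 0.605 FPKM over the 12 mice. Such a low listing is not read as absence.

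Lrp1 (ENSMUSG00000040249, GRCm38 chr10:127538161-127621148, minus strand) was listed in 2 blocks of values. Responders 1 to 6 had 16.8, 0.573, 23.7, 22.1, 0.887 and 15.1 FPKM, against 12.7, 15.3, 1.02, 0.935, 15.0 and 0.945 FPKM in nonresponders 1 to 6. The 5 low mice were at 0.573 to 1.02 FPKM and the 7 high mice at 12.7 to 23.7 FPKM, a 12.5-fold gap with no mouse in it. The low mice were 2 responders and 3 nonresponders, and 2 males and 3 females. Mice that shared the first number of their sample description were found on both sides: number 48 (responder 1 high, responder 2 low), 82 (nonresponders 2 and 5 high, nonresponder 4 low) and 83 (nonresponder 1 high, nonresponder 6 low). The implied depth is approximate and was not resolved for responder 5, a low mouse. As implied, it did not order the blocks either, with nonresponder 4 the deepest at 39700000 fragments and low, and responder 1 the shallowest at 18100000 and high. The log2 fold change of responders over nonresponders was 0.69 (SE 0.944, 95% interval -1.38 to 2.77, adjusted p = 0.874 by limma), so the group comparison says little about this gene. Its residual SD was larger than that of 99.5% of the genes tested.

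Genes near Lrp1 on chromosome 10 were not split. R3hdm2 lay between 19.4 and 28.8 FPKM over the 12 mice, Shmt2 between 7.30 and 12.9 FPKM and Nab2 between 6.45 and 9.52 FPKM. At lower levels, Stat6 lay between 0.783 and 2.70 FPKM and Nxph4 between 0.395 and 3.08 FPKM. Nxph4 was at 0.395 to 0.796 FPKM in the 5 mice low in Lrp1 and at 0.449 to 3.08 FPKM in the other 7. A gap of at least 8-fold between neighbouring values, with at least 3 mice on each side, was found for 65 of the 14203 genes tested (0.458%), or 59 without Y-linked genes and Xist. None of the others had exactly the same low mice as Lrp1. Among them were genes of few cell types, such as the skeletal muscle marker Myh4. Others, chosen after their values were seen, are used in nearly every cell. Actb, beta-actin, was at 170 to 356 FPKM in 5 mice and at 9.71 to 18.4 FPKM in the other 7, which include 4 of the 5 mice low in Lrp1. Rptor, a subunit of the mTORC1 kinase complex, was at 11.5 to 16.5 FPKM in 7 mice and at 0.452 to 1.19 FPKM in the other 5, of which 3 were low in Lrp1. An Lrp1 value near 1 FPKM is given as a listing, and the cause of the split was not tested. The ligands, chaperone and adaptors of LRP1 gave no call: of 12 listed, 10 were tested and 0 were called or had an unadjusted p under 0.05. Of the 10, 4 were above 0 and 6 below. Snx17, with the smallest p, averaged 10.1 ± 3.22 FPKM in responders and 7.73 ± 1.09 FPKM in nonresponders (adjusted p = 0.726 by limma). Thbs1, with the largest fold change, averaged 2.21 ± 1.33 FPKM in responders and 8.69 ± 11.9 FPKM in nonresponders (log2 fold change -0.97, adjusted p = 0.737). Lrpap1, the chaperone, averaged 2.45 ± 1.04 FPKM in responders and 1.98 ± 0.626 FPKM in nonresponders, and the ligand gene Apoe 1068 ± 429 FPKM in responders and 1237 ± 427 FPKM in nonresponders.

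**Figure D3:**
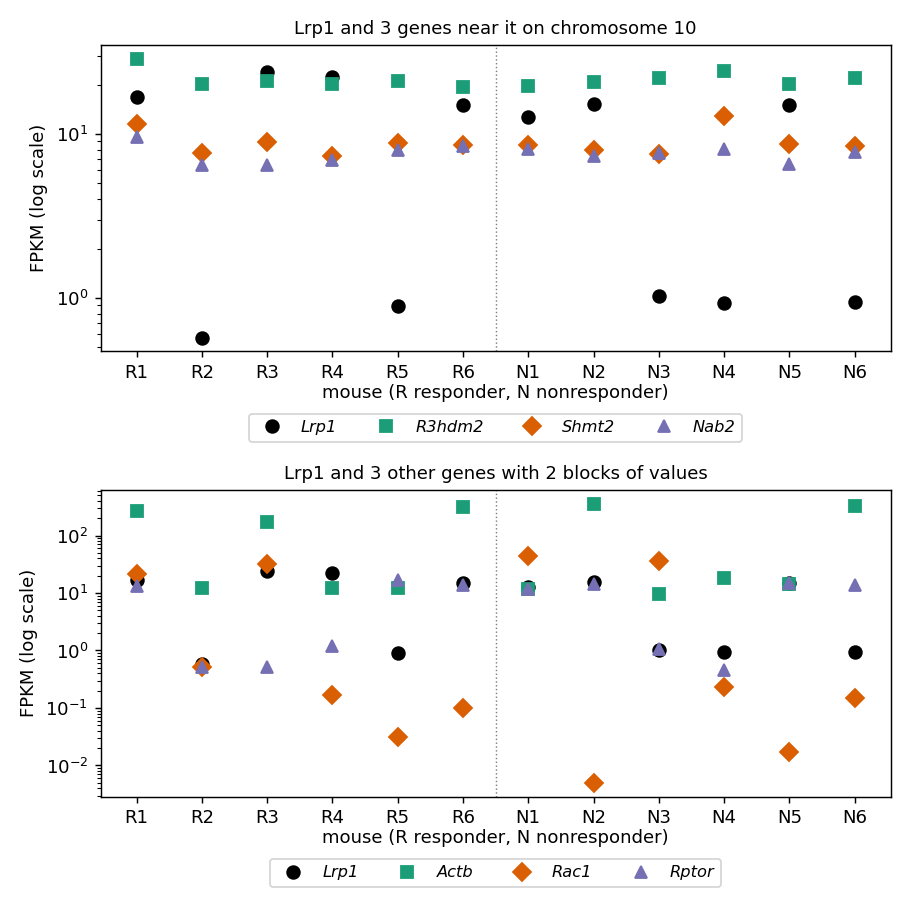
FPKM on a log scale in each mouse, responders R1 to R6 left of nonresponders N1 to N6. The upper plot sets Lrp1 beside 3 genes near it on chromosome 10, which show no gap. The lower plot sets it beside Actb, Rac1 and Rptor, whose low mice are not the same 5. Actb was low in 7 mice, Rac1 in 8 and Rptor in 5, which include 4, 4 and 3 of the mice low in Lrp1. Whether this sharing exceeds what such numbers of low mice give was not tested.

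Phactr1, the actin and phosphatase binder, and Plce1, the phospholipase, were each slightly higher on average in responders, within the spread between mice. Phactr1 (GRCm38 chr13:42680623-43138526, plus strand) had 13.0, 16.3, 18.7, 15.4, 22.0 and 17.0 FPKM in responders 1 to 6, against 12.6, 16.3, 18.3, 12.4, 14.0 and 15.3 FPKM in nonresponders 1 to 6. The groups overlapped, with the highest value in responder 5. Responders over nonresponders gave a log2 fold change of 0.19 (SE 0.124, adjusted p = 0.757 by limma). Plce1 (GRCm38 chr19:38481109-38785030, plus strand) had 5.87, 7.16, 6.89, 6.93, 8.62 and 9.68 FPKM in responders 1 to 6, against 5.56, 6.58, 7.46, 5.11, 6.84 and 7.04 FPKM in nonresponders 1 to 6. Only responders 5 and 6 exceeded every nonresponder. The log2 fold change was also 0.19 (SE 0.124, adjusted p = 0.748 by limma).

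Phactr1 and Plce1 varied in the same direction from mouse to mouse. Their Pearson r over the 12 mice was 0.78 (permutation p = 0.0026, adjusted p = 0.0548 over 21 pairs of members), and Spearman's rho was 0.77 (permutation p = 0.0048, adjusted p = 0.1). The adjusted values miss 0.05. Without nonresponder 4 and responder 5, the mice farthest from the Phactr1 median, r was 0.65. Within responders r was 0.64 and within nonresponders 0.86. The 2 values of a mouse share its library and depth, and Lrp1 and Fhl5 were left out of the pairs. Phactr1 and Plce1 also had like r values with some marker lists. These were 0.55 and 0.56 with sensory neurons, -0.49 and -0.55 with smooth muscle, and -0.47 and -0.59 with endothelium. Their adjusted permutation p was 0.481 to 0.487 over 91 relations between members and marker lists. Without the 2 mice farthest from each list's median, r was 0.18 and 0.14 with sensory neurons (responder 1 and nonresponder 4 left out). It was then -0.73 and -0.61 with smooth muscle (nonresponders 3 and 4 left out), and -0.05 and -0.28 with endothelium (responder 5 and nonresponder 4 left out). With central nervous system glia the signs differed (0.12 and -0.13). The part of these markers in the r of 0.78 was not tested.

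**Figure D4:**
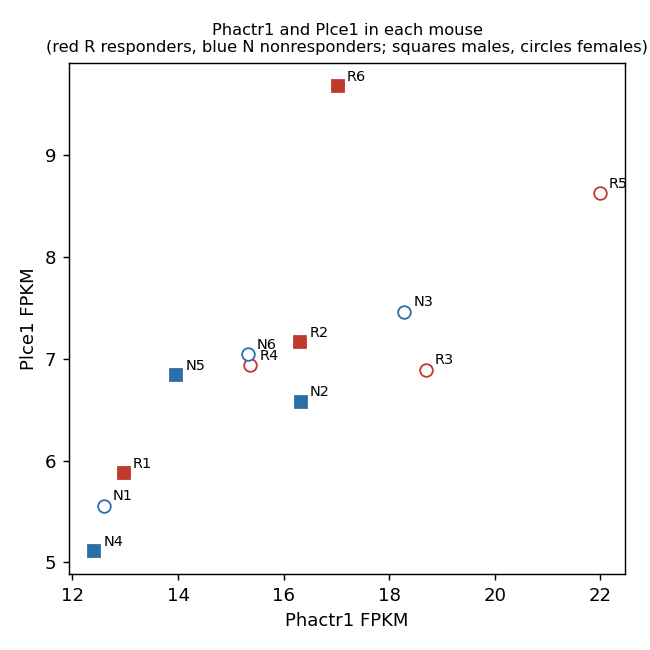
Plce1 FPKM against Phactr1 FPKM, 1 point per mouse, red for responders (R) and blue for nonresponders (N), squares for males and circles for females. Mice high in Phactr1 tended to be high in Plce1 in both groups (r = 0.78 over 12 mice).

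The partners of these proteins gave no call. For PHACTR1, actin and the serum response factor, 10 of 12 listed genes were tested, 0 were called, 0 had an unadjusted p under 0.05, and the median log2 fold change was 0.10. The paralogs Phactr2 (7.65 ± 1.34 FPKM in responders and 7.56 ± 1.39 FPKM in nonresponders) and Phactr3 (10.8 ± 1.05 FPKM in responders and 10.5 ± 1.78 FPKM in nonresponders) were both expressed. Actg1, gamma-actin, averaged 41.4 ± 15.6 FPKM in responders and 31.3 ± 3.90 FPKM in nonresponders (adjusted p = 0.739 by limma). Ppp1ca, the catalytic subunit of protein phosphatase 1, averaged 129 ± 4.64 FPKM in responders and 136 ± 10.2 FPKM in nonresponders. For PLCE1, 18 of 19 listed RAS, RAP and phospholipase C genes were tested and 0 were called. Of the 18, 1 had an unadjusted p under 0.05, beside 7.4% of all genes tested. This was Rap1a, a RAP protein, at 3.17 ± 1.33 FPKM in responders and 4.71 ± 1.01 FPKM in nonresponders (log2 fold change -0.50, adjusted p = 0.655 by limma). Plcb3 had the highest mean of the other phospholipases C, at 57.9 ± 13.6 FPKM in responders and 53.8 ± 5.82 FPKM in nonresponders.

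Tgfbr2 (GRCm38 chr9:116084293-116175360, minus strand) had 4.17, 3.74, 3.13, 3.11, 4.60 and 4.61 FPKM in responders 1 to 6, against 3.57, 3.49, 4.11, 3.25, 3.61 and 3.60 FPKM in nonresponders 1 to 6. The responders spread to both sides of the nonresponders, with responders 3 and 4 below all of them. Limma gave a log2 fold change of 0.08 (SE 0.101, adjusted p = 0.865). Of 20 listed genes of TGF-beta signalling, 18 were tested and 0 were called. An unadjusted limma p under 0.05 was found for 6 of the 18, 4 lower (Ccn2, Ltbp1, Tgfb3 and Eng) and 2 higher (Smad2 and Acvrl1). Of all genes tested, 4.17% were past it lower and 3.23% higher, and the list's median was -0.10. The list was chosen with earlier results of these data known. Whether its count exceeds the share of all genes was not tested. Ccn2, a connective tissue growth factor induced by TGF-beta, averaged 0.431 ± 0.192 FPKM in responders and 1.06 ± 0.370 FPKM in nonresponders (log2 fold change -0.51, adjusted p = 0.389). Smad2, a signal transducer of the receptor, averaged 9.43 ± 0.734 FPKM in responders and 8.07 ± 0.654 FPKM in nonresponders (log2 fold change 0.20, adjusted p = 0.589). Ltbp1, which binds latent TGF-beta, averaged 1.20 ± 0.522 FPKM in responders and 2.61 ± 1.14 FPKM in nonresponders (log2 fold change -0.69, adjusted p = 0.586). Tgfbr1, the type I partner receptor, was listed at 0 to 0.253 FPKM. As for Lrp1, so low a value is given as a listing and not as absence from the ganglion. The fibroblast markers given above moved beside the lower genes of this list, and their part was not tested.

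The transcription factor Mef2d (GRCm38 chr3:88142372-88172086, plus strand) had 6.69, 5.51, 5.21, 3.10, 5.48 and 6.38 FPKM in responders 1 to 6, against 5.03, 5.11, 5.52, 6.24, 4.96 and 5.21 FPKM in nonresponders 1 to 6. The highest and the lowest mouse were both responders. Its log2 fold change was -0.01 (SE 0.128, adjusted p = 0.985 by limma), and it was 0.10 without responder 4. Mef2d shares 531 bases with the antisense gene 1700113A16Rik (mean 0.754 FPKM), and whether the counting used strand is not stated in the sources used here. Of the other MEF2 factors and class IIa deacetylases, 6 of 7 were tested, 0 were called and 0 had an unadjusted p under 0.05. Mef2a was the highest of the MEF2 genes, at 22.7 ± 2.07 FPKM in responders and 21.6 ± 1.91 FPKM in nonresponders.

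Prdm16 (GRCm38 chr4:154316125-154636873, minus strand) had 2.13, 1.90, 1.23, 2.09, 1.28 and 1.32 FPKM in responders 1 to 6, against 1.75, 1.02, 1.68, 0.691, 1.79 and 1.84 FPKM in nonresponders 1 to 6. Responders 1, 2 and 4 lay above every nonresponder, and nonresponders 2 and 4 below every responder. The log2 fold change was 0.12 (SE 0.156, adjusted p = 0.864 by limma). All 9 listed partners were tested and 0 were called, with an unadjusted p under 0.05 for 2, beside 7.4% of all genes tested. Zfp516, a zinc finger partner in mouse brown fat, averaged 7.40 ± 1.31 FPKM in responders and 6.10 ± 0.282 FPKM in nonresponders (log2 fold change 0.23, adjusted p = 0.640). Its groups did not overlap, as was found for 0.549% of all genes tested. Pparg averaged 0.696 ± 0.225 FPKM in responders and 1.16 ± 0.459 FPKM in nonresponders (log2 fold change -0.34, adjusted p = 0.635), and 3 of 3 tested adipocyte markers were lower beside it (median -1.36, sums 0.745 to 6.18 FPKM in responders and 3.41 to 53.3 FPKM in nonresponders), whose part was not tested.

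Astn2 (GRCm38 chr4:65380803-66404611, minus strand) had 4.55, 3.96, 7.76, 6.09, 5.78 and 7.13 FPKM in responders 1 to 6, against 5.13, 6.63, 6.28, 4.92, 8.86 and 6.13 FPKM in nonresponders 1 to 6. The groups overlapped over most of their range, and nonresponder 5 was the highest. For Astn2 the log2 fold change was -0.10 (SE 0.166, adjusted p = 0.903 by limma), and it was 0.009 without nonresponder 5. Trim32, a ubiquitin ligase gene that lies inside Astn2 on the other strand, shares no exon with it and averaged 7.11 FPKM. Fhl5 (GRCm38 chr4:25199908-25242876, minus strand) was near the floor of the table, at 0.099, 0.109, 0.068, 0.087, 0.065 and 0.131 FPKM in responders 1 to 6, and 0, 0.188, 0.115, 0.120, 0.135 and 0.138 FPKM in nonresponders 1 to 6. A 2-sided exact permutation test, run over the 924 ways to divide the mice, gave a difference of -0.028 on the log2(FPKM + 1) scale (p = 0.472). Without nonresponder 1, listed at 0, the difference was -0.0597 and the exact p was 0.0173, at levels too low to read as a change. Of its family, Fhl1, a LIM protein of muscle, averaged 25.5 ± 4.41 FPKM in responders and 37.4 ± 11.8 FPKM in nonresponders (log2 fold change -0.50, adjusted p = 0.640 by limma). It was the 1 of 5 tested genes of the FHL and CREM list with an unadjusted p under 0.05 (all genes: 7.4%), and 0 were called. Of the skeletal muscle markers, 7 of 7 were lower beside it (median -1.44, sums 8.86 to 363 FPKM in responders and 26.9 to 1667 FPKM in nonresponders), whose part was not tested.

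The other genes near migraine loci gave no call either. Of 36 such genes, 27 were tested and 0 were called, with a median log2 fold change of -0.03. An unadjusted limma p under 0.05 was found for 3 of the 27, beside 7.4% of all genes tested. Kcnk5, a two-pore-domain potassium channel, was at 2.17, 3.27, 3.87, 3.64, 4.19 and 4.22 FPKM in responders 1 to 6, against 5.65, 4.45, 6.29, 4.24, 5.48 and 6.25 FPKM in nonresponders 1 to 6. Every responder lay below every nonresponder, with responder 6 and nonresponder 4 nearly level (log2 fold change -0.50, SE 0.115, adjusted p = 0.339 by limma). Kcnk5 was the 1 of the 27 whose groups did not overlap, against 0.549% of all genes tested. Trpm8, the cold and menthol channel of sensory neurons, had 4.60, 2.47, 4.92, 1.73, 1.87 and 1.96 FPKM in responders 1 to 6, against 7.10, 5.29, 6.87, 5.36, 3.22 and 8.42 FPKM in nonresponders 1 to 6. The groups overlapped, mainly through nonresponder 5 (log2 fold change -0.88, SE 0.244, adjusted p = 0.445 by limma). Htr1f, the serotonin receptor that lasmiditan activates, averaged 2.07 ± 0.391 FPKM in responders and 1.59 ± 0.499 FPKM in nonresponders (log2 fold change 0.26, adjusted p = 0.647). Sensory neuron markers beside these were higher in 8 of 9 cases (median 0.13, sums 967 to 2003 FPKM in responders and 1077 to 1772 FPKM in nonresponders).

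Within each sex, no member was called. In males the count was 0 of 8 (0.0141% of all genes tested were called), in females 0 of 8 (0.00704%), and for the difference of the response effect between the sexes 0 of 8 (0%). At an unadjusted p under 0.05, limma found 711 genes for that difference, none of them a member. Mrvi1 had a log2 fold change of -0.84 in males (adjusted p = 0.700 by limma) and -0.42 in females (adjusted p = 0.803). Its male groups did not overlap, with 1.00 to 2.31 FPKM in responders and 3.03 to 4.78 FPKM in nonresponders, while its female groups did, with 2.05 to 3.12 FPKM in responders and 2.25 to 4.44 FPKM in nonresponders. The difference between the sexes was 0.42 (SE 0.371, adjusted p = 0.836). Tgfbr2 also had male groups that did not overlap, at 3.74 to 4.61 FPKM in responders and 3.25 to 3.61 FPKM in nonresponders. These were 2 of the 8 tested members in males and 0 of 8 in females, against 9.46% of all genes tested in males and 19.9% in females. Prdm16 had the smallest p for a difference between the sexes among the members (-0.52, SE 0.283, adjusted p = 0.836 by limma), with log2 fold changes of 0.38 in males and -0.14 in females. Females against males, tested with response as the covariate, gave 0 of 8 members, while 0.0563% of all genes tested were called. The largest such fold change among the members other than Lrp1 was that of Mef2d, at 4.93 ± 0.915 FPKM in females and 5.81 ± 0.718 FPKM in males (SD, n = 6 each, log2 fold change -0.21, adjusted p = 0.864).

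**Figure D5:**
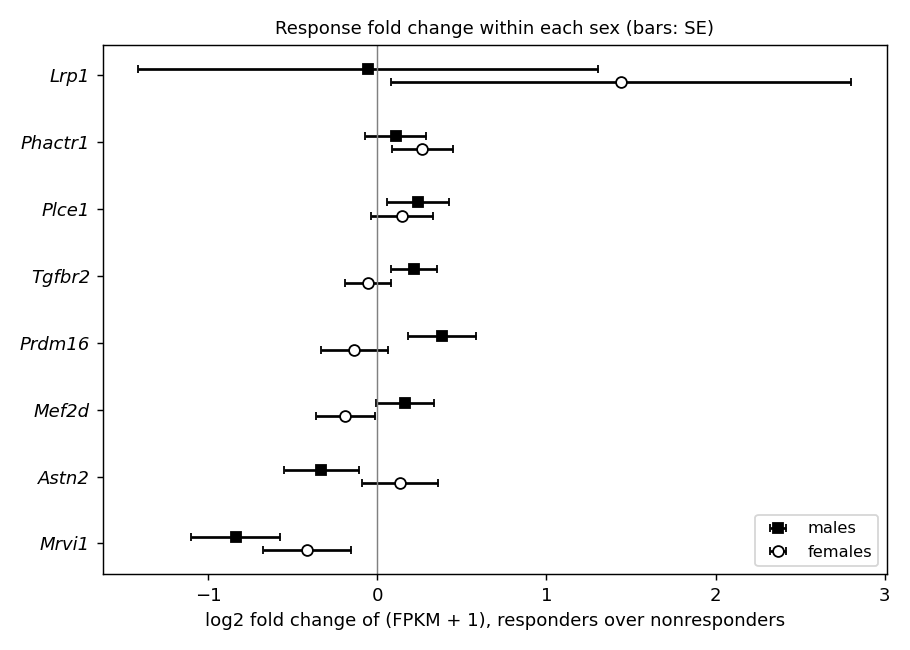
Log2 fold change of (FPKM + 1), responders over nonresponders, in males (filled squares) and females (open circles), with the standard error as a bar. Mrvi1 is below 0 in both sexes, and Tgfbr2, Prdm16, Mef2d, Astn2 and Lrp1 have opposite signs in males and females, none with a called difference.

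The protein-coding genes whose log2 levels followed each member most closely over the 12 mice are given as a description, out of 12566 compared. Lrp1 was followed by Uhrf1bp1l (r = 0.91), Kars (0.84) and Ankle2 (0.83). Of these, Uhrf1bp1l had no gap, at 11.5 to 17.4 FPKM in responders and 10.4 to 15.5 FPKM in nonresponders. Mrvi1 was followed by Vps25 (0.89), Abcg2 (0.88) and Mark3 (0.86). Abcg2, a transporter known from brain capillaries, was at 5.54 to 14.3 FPKM in responders and 10.4 to 28.0 FPKM in nonresponders (adjusted p = 0.445 by limma). Phactr1 was followed by Hs6st3 (0.90), Nrp1 (0.89) and Amotl2 (0.88), and Nrp1, a semaphorin and VEGF co-receptor, is itself in the list of other migraine loci. Plce1 was followed by Usp9x (0.89), Dgki (0.88) and 4930452B06Rik (0.87), and DGKI phosphorylates diacylglycerol, a product of phospholipases C. Mef2d was followed by Rexo4 (0.93), Tmem168 (0.85) and Bdp1 (0.84), Prdm16 by Ufsp2 (0.91), Evc (0.88) and 0610009B22Rik (0.85), Astn2 by Kcnt1 (0.90), Ppp2r1a (0.84) and Sema4f (0.82), and Tgfbr2 by Vps9d1 (0.85), Tmem158 (0.83) and AL731706.1 (0.82). AL731706.1 has a gap of its own, at no more than 0.000643 FPKM in 9 mice and at least 14.0 FPKM in 3, so that its r rests on 3 mice. With values centred within group and sex, at most 1 of the 3 genes was shared for any member.

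Totals per mouse were 286388 to 358590 FPKM, and 12648 to 13994 genes reached 1 FPKM. The step between low values implied 18100000 to 39700000 fragments per mouse, but was not resolved for responder 5. Every first number of the sample descriptions occurred in 1 response group only, so that whatever it stands for and the response cannot be told apart.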

How the data were processed

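The authors deposited 1 table with a value per Ensembl gene and mouse. Its header names no unit, and the deposited values were taken as FPKM, since totals differ between mice and low values rise in steps set by gene length. The builds GRCm38 and mm10 and the tools StringTie 1.3.5 and STAR 2.6.0a are named, per the submitters' processing notes. Symbols came from GENCODE M21, which held 51076 of the 51341 identifiers. Genes that reached 1 FPKM in 3 or more mice entered limma 3.58.1 (R 4.3.3) on log2(FPKM + 1) (9 residual and 2.23 prior degrees of freedom), 2-sided, with sex as a covariate or with 4 means of sex and group. Fold changes on this scale understate those of low genes. Near copies were sought with blastn 2.17.0. The procedure was tested on simulated data. The alternatives tried were the pseudocount, the filter, the scaling, the covariates and each mouse left out. The members and gene lists were chosen with earlier results of these data known. All members are named, with up to 4 tested genes per list by smallest p, list paralogs for their level and 3 genes by likeness. Eng, Acvrl1, Lrpap1, Apoe, Plcb3, Itpr1, Itpr3, Prkg1, Acta2, Myh11, Myh4, Pdgfrb, Fshb, Pou1f1, Actb, Rac1 and Rptor, and the neighbours of Lrp1 and genes overlapping members, were added after their values were seen.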

Additional observations from a re-analysis of the deposited data

How the results depend on the processing

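None of the 8 tested members was called under any of the 23 alternatives, and the exact p of Fhl5 fell under 0.05 only without nonresponder 1 (0.0173). Lrp1, Mrvi1, Phactr1, Tgfbr2 and Plce1 kept their direction in all 23, with Mrvi1 between -0.84 and -0.44 (adjusted p 0.321 to 0.763), Lrp1 between 0.15 (array weights) and 1.28 (without responder 2), Tgfbr2 between 0.025 (array weights) and 0.13 (without responder 4), Plce1 between 0.11 (without responder 6) and 0.25 (without responder 1) and Phactr1 between 0.12 (without nonresponder 1) and 0.25 (without responder 1). Prdm16 turned to -0.032 without responder 1 and nonresponder 4 together. Mef2d turned to 0.018 with mice of the same description number averaged and to 0.0089 with quantile normalization, and ranged from -0.057 to 0.099 with 1 mouse left out, above 0 without nonresponder 3, 4 or 6 or responder 4. Astn2 ranged likewise from -0.17 to 0.0093, above 0 only without nonresponder 5. With 1 mouse left out Fhl5 ranged from -0.0597 to -0.00989, and it was -0.103 with a pseudocount of 0.1 and -0.0718 rescaled to TPM (exact p = 0.721 and 0.545). Over all genes, the 3 calls of responders against nonresponders became 1 with mice averaged by description number and 1 with the replicate block. The replicate numbers did not pair the mice (correlations -0.27 to 0.13, with 1 of 6 over 0.1). With 1 mouse left out the count was 2 to 6 (5 without responder 2, 6 without responder 5 and 6 without responder 6), 1 to 5 in males, 1 to 5 in females, 0 to 3 for the difference between sexes and 6 to 9 for females against males. The male count was 4 with a pseudocount of 0.1 and the female count 5 with no filter. The cause of these changes was not tested, and read counts behind single values are unknown.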
